A study of Mus musculus with 20 samples.

Results

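The cassette microexons of mouse bone marrow are described here, that is, exons of 3 to 30 bp that were either kept in the spliced transcript or left out of it. They were found from the junction table alone. An exon was taken where an annotated junction skipped it, 2 annotated junctions joined it to the same outer splice sites, its length was 3 to 30 bp and no annotated junction lay inside it. The rule gave 312 microexon events in 296 different exons, out of 8340 cassette events of 3 to 1000 bp, and 15 exons took part in more than 1 event because their neighbouring exons varied. The counts come from ribosomal RNA-depleted total RNA of bulk bone marrow of 20 recipient mice in 4 groups of 5. The groups were vehicle-treated and sudemycin D6-treated mice carrying U2AF1(WT)/rtTA marrow, and vehicle-treated and sudemycin D6-treated mice carrying U2AF1(S34F)/rtTA marrow. All 20 mice were irradiated wild-type recipients of marrow pooled from several transgenic donors, and engraftment lasted more than 6 weeks before the transgene was switched on. The transgene depends on the reverse tetracycline transactivator rtTA, and all 20 mice ate doxycycline chow (625 ppm) for 7 days, with infusion of sudemycin D6 or vehicle through an intrajugular catheter on the last 5 of those days. Each mouse had 34384214 to 64813149 reads on junctions.

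U2AF1 is the small subunit of the U2 auxiliary factor, which recognises the AG at the end of the intron, and the S34F change alters which base it prefers just before that AG. Sudemycin D6 binds the SF3B1 complex, which engages the branch point further upstream in the intron. Microexons are too short for the usual definition of an exon by factors bound to both of its ends, and they are best known from neurons, where SRRM4 (nSR100) promotes their inclusion and PTBP1 represses it. Many add only a few amino acids to a protein, often at a surface that binds a partner.

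The microexons with the lowest false discovery rate (FDR) for the drug or for the genotype are shown first, because most of the values below belong to them. Each run reads 5′ to 3′ on the strand of the gene, from NCBIM37 (mm9), with the exon in capitals between the last 20 bases of the upstream intron and the first 6 bases of the downstream intron. The coordinates give the exon. All of them lie in coding sequence by the annotation. These 10 had the lowest FDR for sudemycin D6 averaged over the genotypes.
Abi1 15 bp, chr2:22818734-22818748, minus strand: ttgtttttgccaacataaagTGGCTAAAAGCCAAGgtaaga
Idh3g 12 bp, chrX:71027637-71027648, minus strand: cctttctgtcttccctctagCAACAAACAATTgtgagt
Senp6 21 bp, chr9:79946693-79946713, plus strand: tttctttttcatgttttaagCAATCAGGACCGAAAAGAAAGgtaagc
Diap2 21 bp, chrX:126360463-126360483, plus strand: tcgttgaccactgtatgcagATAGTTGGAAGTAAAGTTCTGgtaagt
Ncor1 27 bp, chr11:62216938-62216964, minus strand: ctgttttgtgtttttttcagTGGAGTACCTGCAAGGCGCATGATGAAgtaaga
Syne1 21 bp, chr10:4920266-4920286, plus strand: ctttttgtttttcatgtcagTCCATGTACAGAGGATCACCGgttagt
Fip1l1 27 bp, chr5:74981071-74981097, plus strand: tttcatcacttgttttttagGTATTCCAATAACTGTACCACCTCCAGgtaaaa
Max 27 bp, chr12:78062250-78062276, minus strand: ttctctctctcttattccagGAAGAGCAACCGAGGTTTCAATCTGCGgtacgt
Mdm1 30 bp, chr10:117593890-117593919, plus strand: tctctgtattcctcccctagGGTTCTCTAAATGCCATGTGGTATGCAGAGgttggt
Trappc9 27 bp, chr15:72872607-72872633, minus strand: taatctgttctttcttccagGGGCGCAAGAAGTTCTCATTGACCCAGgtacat

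These 5 had the lowest FDR for the genotype among those not already shown.
Spna2 15 bp, chr2:29869678-29869692, plus strand: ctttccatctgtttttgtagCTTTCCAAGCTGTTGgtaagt
Pecam1 23 bp, chr11:106523316-106523338, minus strand: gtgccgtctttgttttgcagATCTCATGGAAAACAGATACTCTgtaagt
Ctage5 27 bp, chr12:60247323-60247349, plus strand: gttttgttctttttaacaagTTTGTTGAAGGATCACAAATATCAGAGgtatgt
Mef2a 24 bp, chr7:74389407-74389430, minus strand: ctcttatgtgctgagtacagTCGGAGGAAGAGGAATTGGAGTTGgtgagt
Acap2 21 bp, chr16:31122707-31122727, minus strand: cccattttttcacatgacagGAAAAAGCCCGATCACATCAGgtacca

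Of the shortest exons that could be tested in every comparison, 2 are shown, because their counts bear on how exons of 3 to 6 bp were measured.
Clasp2 3 bp, chr9:113796163-113796165, plus strand: tgtgttggaactctcactagAGAgtaagt
Phb2 6 bp, chr6:124666443-124666448, plus strand: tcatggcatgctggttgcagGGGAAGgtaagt

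Of the 296 microexons, 249 were coding, 16 lay in a UTR, 15 in a non-coding transcript and 5 were partly coding, and 11 joined annotated splice sites in a way that matched no annotated exon. Lengths divisible by 3 made up 229 of the 296 (77.4%), against 3620 of 7608 (47.6%) longer cassette exons of 31 to 1000 bp. The commonest lengths were 27 bp (45 exons), 24 bp (39 exons), and 18 and 30 bp (26 exons each). The base just before the acceptor AG (position -3) was C in 177, T in 78, A in 37 and G in 4 microexons, and A was at 12.5% here and at 8.02% in longer exons. Introns around microexons had a median length of 1201.5 bp upstream and 1404 bp downstream, against 1707 and 1711 bp around longer exons. Pyrimidines made up a median of 76.5% of the last 20 intron bases, the final 3 left out, in both sets. TGC, searched for 5′ to 3′ on the strand of the gene alone, occurred within the last 20 intron bases of 129 microexons (43.6%) and of 2398 longer exons (31.5%). These shares are descriptions of the 2 sets and no test was run on them.

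Inclusion is given as Ψ, the mean of the 2 inclusion junction counts divided by that mean plus the skipping count. It runs from 0 (always skipped) to 1 (always included). At least 10 reads on average over all 20 mice were found for 269 of the 312 events, and the other 43 were not tested. The 269 had a median of 186 reads per mouse and ranged from 11.8 to 8060. Their mean Ψ over the mice was below 0.1 in 137, from 0.1 to 0.9 in 88 and above 0.9 in 44. Mostly skipped exons were thus 50.9% of the tested microexons and 22.3% of the tested longer exons.

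**Figure D1:**
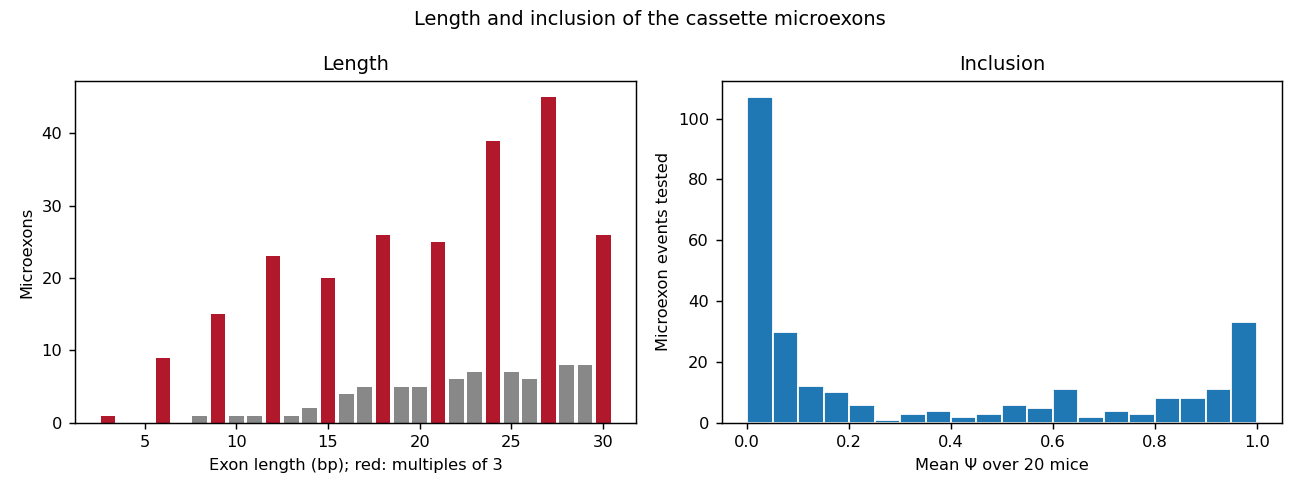
Left, the number of microexons (y axis) at each exon length in bp (x axis), with multiples of 3 in red. Right, the number of tested microexon events (y axis) by mean Ψ over the 20 mice (x axis, bins of 0.05). Multiples of 3 stand above their neighbours, and 137 of the 269 events have a mean Ψ below 0.1.

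Among the deepest microexons of intermediate inclusion, some were called in none of the comparisons. Flna, which encodes the actin cross-linker filamin A, had a 24 bp microexon (chrX:71478306-71478329) with 7596 reads per mouse. Its Ψ was 0.165 ± 0.00928 (SD, n = 5) in vehicle WT mice, 0.174 ± 0.0223 in sudemycin WT mice, 0.164 ± 0.0191 in vehicle S34F mice and 0.172 ± 0.0140 in sudemycin S34F mice. The averaged drug difference for Flna was 0.0087 (FDR=0.78, edgeR). Acly, the ATP citrate lyase that makes acetyl-CoA for lipid synthesis, had a 30 bp microexon with a Ψ of 0.521 ± 0.0229, 0.547 ± 0.0595, 0.577 ± 0.0364 and 0.564 ± 0.01 in the groups in the same order. None of its comparisons passed the test, the lowest FDR being 0.217 for the genotype under vehicle, although the vehicle WT mice (0.4935 to 0.555) and the sudemycin S34F mice (0.5553 to 0.5798) did not overlap. Luc7l2, which encodes a U1 snRNP-associated splicing factor, had a 30 bp microexon whose Ψ was 0.529 ± 0.0170, 0.464 ± 0.0611, 0.464 ± 0.0339 and 0.449 ± 0.0179. Unlike those of Flna and Acly, its genotype difference under vehicle was -0.0647 (FDR=0.041) with no overlap between the 2 groups, and this call was lost when vehicle S34F replicate 3 or replicate 11 was left out.

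An event was called at an FDR below 10% with a change of more than 1 percentage point in Ψ (|ΔΨ|>1%). The test was edgeR's quasi-likelihood test of inclusion against skipping counts, fitted to all cassette events of 3 to 1000 bp with p-values adjusted over all of them. Averaged over both genotypes, sudemycin D6 changed 28 of 269 microexon events, 25 towards skipping and 3 towards inclusion. That is 10.4% of the microexons, beside 5.28% of all 7353 events tested, and 3.13% of all events were called towards skipping. The median ΔΨ was -0.00271 over the microexons and -0.00109 over all events, and 60.2% of microexons against 53.8% of all events had a negative ΔΨ. With each of the 20 mice left out in turn, 20 of the 28 calls were kept. With a dispersion estimated from the data in place of the fixed value of 0, 14 of the 28 were called, and limma on Ψ called 21 of them. The shares of all events kept or called under these settings are not given here.

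The share of events called by the drug fell from the shortest exons to those of 151 to 200 bp. It was 10.4% at 3 to 30 bp, 7.33% at 31 to 60 bp, 5.97% at 61 to 90 bp, 5.48% at 91 to 120 bp, 3.93% at 121 to 150 bp, 2.81% at 151 to 200 bp and 4.31% above that. Among events with a mean Ψ of 0.1 to 0.9 alone, the drug was called in 18 of 88 microexons (20.5%) and in 246 of 2495 longer exons (9.86%). The median depth of these 2 sets was 138 and 106 reads. For the genotype under vehicle the share was 6.56% at 3 to 30 bp and highest, at 8.44%, at 31 to 60 bp. In the longer length classes, in the same order, it was 6.35%, 5.23%, 5.29%, 4.93% and 5.52%. The 2 series of shares were not tested against each other.

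**Figure D2:**
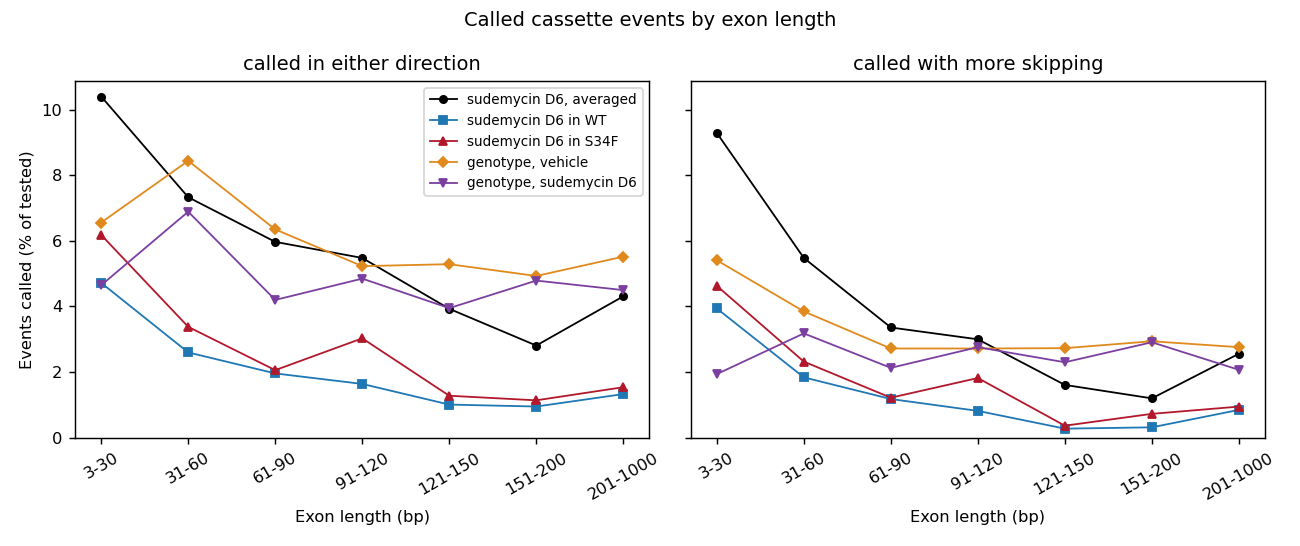
Percent of tested cassette events called (y axis) by exon length in bp (x axis), in either direction (left) and towards skipping (right), with 1 line for each comparison. For the averaged drug comparison, the black line falls from 10.4% at 3 to 30 bp to 2.81% at 151 to 200 bp.

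The 10 microexons with the lowest FDR for the drug follow by the role of their genes. Abi1 encodes a subunit of the WAVE complex, which drives branching of actin filaments. Its 15 bp microexon had a Ψ of 0.202, 0.216, 0.224, 0.252 and 0.287 in the vehicle WT mice and 0.094, 0.112, 0.120, 0.120 and 0.140 in the sudemycin WT mice. In S34F mice it was 0.133, 0.143, 0.159, 0.171 and 0.189 with vehicle and 0.0846, 0.0868, 0.0894, 0.0908 and 0.0964 with sudemycin D6. Treated and untreated mice did not overlap in either genotype. The difference was -0.119 in WT mice (FDR=8.3e-07) and -0.0693 in S34F mice (FDR=7.1e-06).

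Diap2 encodes a formin that nucleates and elongates straight actin filaments, and it lies on the X chromosome. The Ψ of its 21 bp microexon was 0.754, 0.762, 0.790, 0.799 and 0.805 in vehicle WT mice and 0.509, 0.539, 0.544, 0.628 and 0.657 in sudemycin WT mice. The vehicle S34F mice had 0.619, 0.663, 0.670, 0.707 and 0.779, and the sudemycin S34F mice 0.421, 0.516, 0.523, 0.549 and 0.598. Sudemycin-treated mice lay below all vehicle-treated mice of their genotype. ΔΨ was -0.207 in WT mice (FDR=3.3e-05) and -0.166 in S34F mice (FDR=0.00044).

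Idh3g encodes the gamma subunit of the NAD-dependent isocitrate dehydrogenase of the citric acid cycle and is also X-linked. Its 12 bp microexon was included at 0.745, 0.754, 0.766, 0.770 and 0.771 in vehicle WT mice, the tightest of its 4 groups. Sudemycin WT mice had 0.457, 0.467, 0.484, 0.588 and 0.608. Vehicle S34F mice had 0.543, 0.567, 0.589, 0.609 and 0.666, and sudemycin S34F mice 0.388, 0.394, 0.463, 0.467 and 0.527. The 3 other groups all lay below vehicle WT. ΔΨ with the drug was -0.241 in WT mice (FDR=1.2e-05) and -0.147 in S34F mice (FDR=0.00019).

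Senp6 encodes a protease that trims SUMO chains. Its 21 bp microexon had a Ψ of 0.723, 0.740, 0.760, 0.790 and 0.799 in vehicle WT mice against 0.545, 0.555, 0.581, 0.621 and 0.651 after sudemycin D6. In S34F mice the vehicle values were 0.777, 0.825, 0.827, 0.830 and 0.844 and the sudemycin values 0.669, 0.692, 0.697, 0.706 and 0.711. No treated mouse reached an untreated mouse of its genotype. ΔΨ was -0.172 in WT (FDR=0.00046) and -0.126 in S34F mice (FDR=0.00014).

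Ncor1, a corepressor of nuclear receptors, had a 27 bp microexon with a Ψ of 0.409, 0.419, 0.422, 0.446 and 0.448 in vehicle WT mice and 0.272, 0.273, 0.280, 0.327 and 0.345 in sudemycin WT mice. The S34F mice had 0.421, 0.433, 0.456, 0.475 and 0.495 with vehicle and 0.308, 0.318, 0.346, 0.389 and 0.401 with sudemycin D6. Again the treated mice lay below the untreated mice in both genotypes, with a ΔΨ of -0.129 (FDR=0.0005) and -0.104 (FDR=0.00011). Max, the dimerisation partner of MYC, had a 27 bp microexon with a mean Ψ of 0.371 ± 0.0487 in vehicle WT and 0.245 ± 0.0662 in sudemycin WT mice, where the highest treated value (0.332) lay above the lowest untreated value (0.295). In S34F mice Max fell from 0.373 ± 0.0378 to 0.255 ± 0.0312 without overlap, and the FDR was 0.01 in WT and 2.2e-05 in S34F mice.

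Fip1l1 encodes a subunit of the factor that cleaves and polyadenylates pre-mRNA. Its 27 bp microexon had a mean Ψ of 0.713 ± 0.0256 and 0.579 ± 0.0431 in vehicle and sudemycin WT mice, and of 0.700 ± 0.0221 and 0.556 ± 0.0170 in the S34F mice. The groups did not overlap in either genotype, but only the S34F difference of -0.144 was called (FDR=0.0034), and the WT difference of -0.134 had an FDR of 0.105. Mdm1, which encodes a centriolar microtubule-binding protein, had a 30 bp microexon with an averaged ΔΨ of -0.148 (FDR=0.0027). Its sudemycin WT mice were spread from 0.244 to 0.676, and the highest of them exceeded every vehicle WT mouse (0.585 to 0.673). Trappc9, a subunit of the TRAPP II tethering complex, had a 27 bp microexon with an averaged ΔΨ of -0.0881 (FDR=0.003), from 0.192 ± 0.0539 to 0.103 ± 0.0185 in WT and from 0.263 ± 0.0599 to 0.176 ± 0.0288 in S34F mice.

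A few microexons moved the other way. Syne1, which encodes the nuclear envelope protein nesprin-1, had a 21 bp microexon that was almost always skipped, with a Ψ of 0.00819 ± 0.00489 in vehicle WT, 0.0217 ± 0.00513 in sudemycin WT, 0.0125 ± 0.00348 in vehicle S34F and 0.0323 ± 0.00894 in sudemycin S34F mice. The averaged ΔΨ was 0.0166 (FDR=3.8e-06) and vehicle and drug groups did not overlap in either genotype. Its downstream junction was at 0 reads in vehicle WT replicate 4 and vehicle S34F replicate 1, and with the downstream junction alone the WT difference was 0.00658 (exact permutation test, p = 0.135). With that junction alone the drug calls of Syne1, averaged and within each genotype, were lost because the change fell below 1 percentage point or the test was not passed. Uckl1, a uridine-cytidine kinase-like gene, had a 17 bp microexon, a length that shifts the reading frame. Its Ψ was 0.572 ± 0.0772 and 0.701 ± 0.0546 in vehicle and sudemycin WT mice and 0.498 ± 0.0198 and 0.636 ± 0.0391 in the S34F mice, an averaged ΔΨ of 0.133 (FDR=0.0062).

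**Figure D3:**
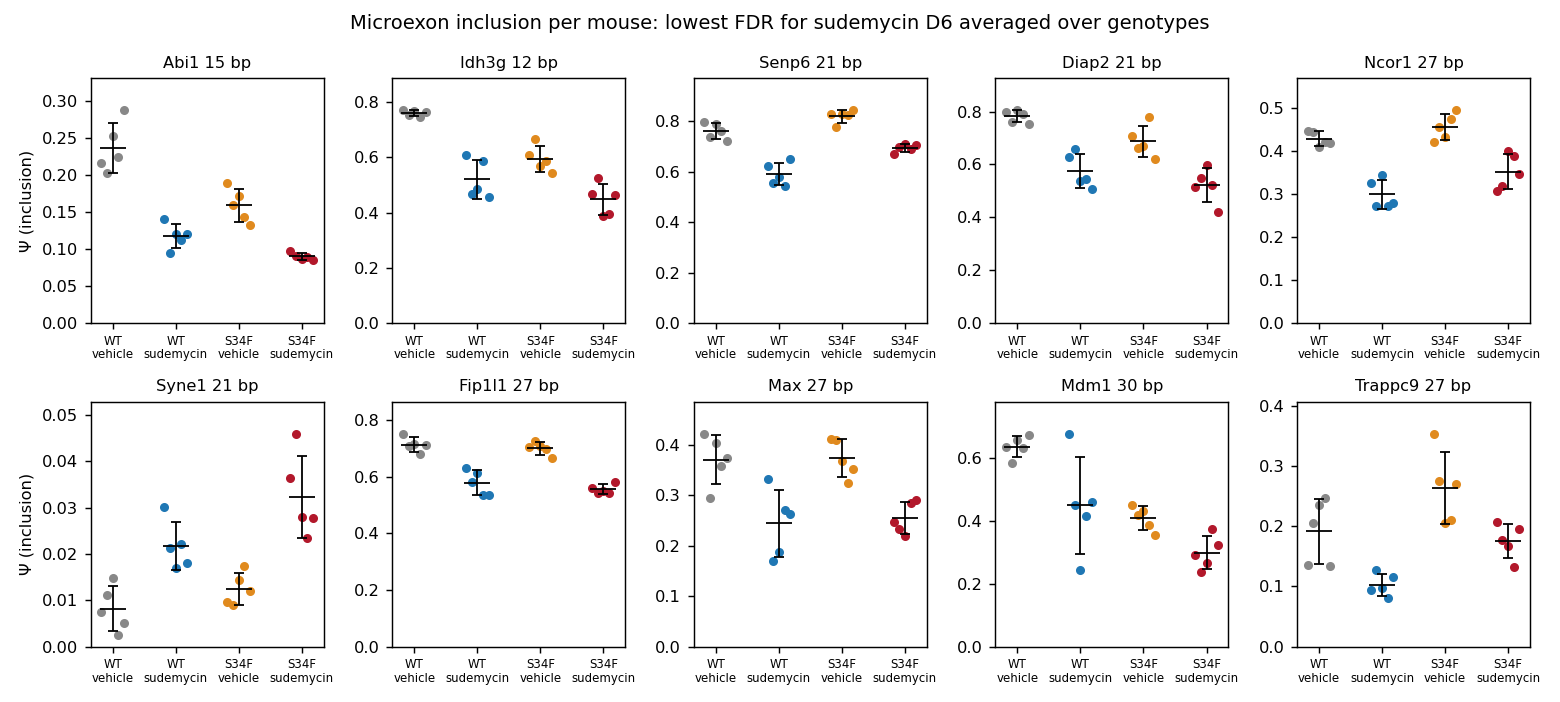
Ψ of 10 microexons (y axes, from 0 and scaled to each exon) in the 4 groups (x axes), with 1 point for each of 5 mice and a black bar and whiskers for the mean and SD. In 9 of the 10 panels, Syne1 being the exception, both drug groups have a lower mean than the vehicle group of the same genotype.

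The other averaged drug calls towards skipping had a higher FDR. Macf1, which encodes a linker of microtubules and actin, had a 9 bp microexon with a ΔΨ of -0.0716 (FDR=0.013). Anxa6 (annexin A6, a membrane-binding protein) had an 18 bp microexon at -0.0715 (FDR=0.014), and Mtmr1 (a myotubularin-related phosphatase on the X chromosome) a 24 bp microexon at -0.112 (FDR=0.014). Vps29, a subunit of retromer, was at -0.08 (FDR=0.027), and Mink1, a kinase of the Ste20 family, at -0.134 (FDR=0.045), which was lost without vehicle S34F replicate 3. Dnm2, which encodes the endocytic GTPase dynamin 2, had a 12 bp microexon with a mean depth of 1049 reads and a ΔΨ of -0.0409 (FDR=0.046), lost without sudemycin S34F replicate 6 or replicate 12. Of the 25 exons called towards skipping, 23 had a length divisible by 3 (92.0%), beside 77.4% of all microexons, and 5 of the 25, beside 43.6% of all microexons, held TGC in the last 20 intron bases. The base at position -3 of the 25 events called towards skipping was C in 11 (44.0%), A in 8 (32.0%) and T in 6 (24.0%). Over the 269 tested microexons it was C in 59.5%, A in 14.1% and T in 24.9%, and A was at 7.83% of the events of all lengths called towards skipping.

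In WT mice alone, 12 of 254 microexons were called (4.72%, beside 1.72% of all events), 10 towards skipping, where the background was 0.996% of all events. In S34F mice alone, 16 of 259 were called (6.18%, beside 2.28%), 12 towards skipping against a background of 1.39%. The 2 comparisons share no mice. Those called in both numbered 7, which is 7 of the 12 and 7 of the 16, and over events of all lengths 61 of 121 and 61 of 161 were shared. The 7 were Abi1, Diap2, Idh3g, Max, Ncor1, Senp6 and Syne1. Of the WT calls 11 of 12, and of the S34F calls 15 of 16, had the same sign in the other genotype, beside 116 of 121 and 147 of 161 over events of all lengths. Over the 244 microexons tested in both, the 2 sets of ΔΨ had a Pearson r of 0.401, a description across exons that share junction structure and depth, and r was 0.271 over 6738 events of all lengths. Monocyte and macrophage markers summed to 683 to 794 CPM (counts scaled to library size) in vehicle S34F and 843 to 1030 CPM in sudemycin S34F mice, and megakaryocyte markers to 27.3 to 39.9 and 15 to 26.9 CPM, without overlap. In WT mice the ranges overlapped, at 856 to 1160 and 876 to 1150 CPM for the first list and 28.9 to 49 and 20.9 to 41.5 CPM for the second. The part of these cells in the drug differences was not tested. The S34F count was 10 without vehicle S34F replicate 3, without sudemycin S34F replicate 2 or without sudemycin S34F replicate 6. With the estimated dispersion edgeR called 0 in either genotype, with 27 in WT and 31 in S34F mice at an unadjusted p under 0.05. By limma, 0 were called in WT mice (34 at p under 0.05) and 7 in S34F mice. Shares over all events are not given for these alternative settings.

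**Figure D4:**
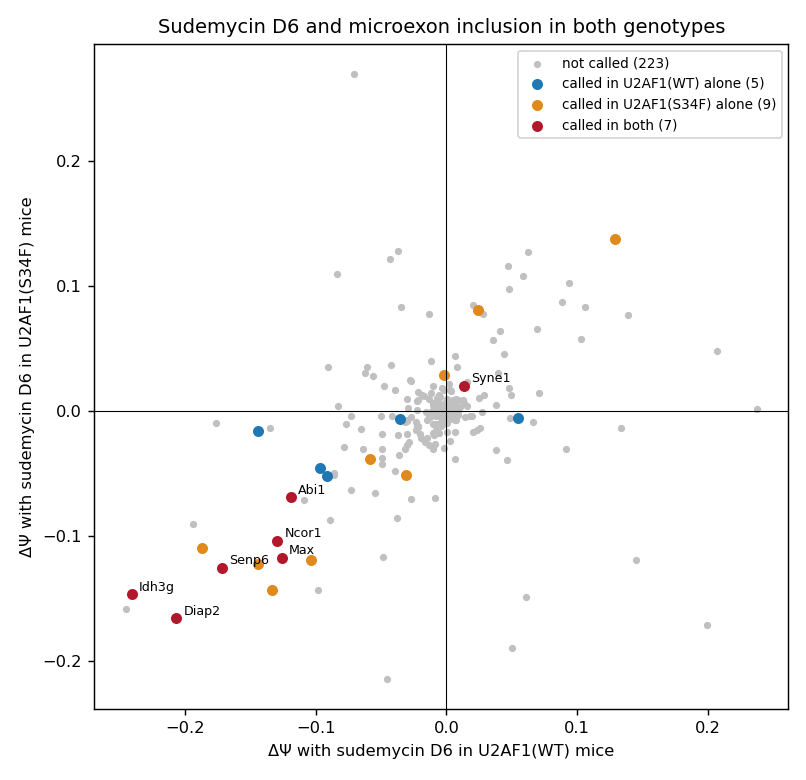
ΔΨ with sudemycin D6 in S34F mice (y axis) against WT mice (x axis) for 244 microexon events, coloured by where they were called. The 7 events called in both lie in the lower left quadrant, apart from Syne1, which lies just above 0 on both axes.

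No microexon passed the test of the interaction, that is, of a drug difference that depends on the genotype. It was 0 of 269 microexons and 0 of 7353 events by edgeR, and also 0 microexons by limma on Ψ and by edgeR with the estimated dispersion. At an unadjusted p under 0.05 there were 23 of 269 microexons by edgeR, beside 366 of 7353 events of all lengths. There were 9 microexons by limma and 12 with the estimated dispersion. The smallest FDR was 0.964. Mef2a, a transcription factor of the MADS box family, had a 24 bp microexon called in WT mice, from 0.0479 ± 0.0127 to 0.103 ± 0.0244, while S34F mice had 0.0479 ± 0.0129 and 0.0420 ± 0.0111. Its difference between the genotypes was not called (interaction ΔΨ of -0.0608, FDR=0.964). Vps29 was called in WT mice, from 0.309 ± 0.0751 to 0.164 ± 0.0530, against 0.215 ± 0.0413 and 0.199 ± 0.0348 in S34F mice, and its interaction ΔΨ of 0.128 had an FDR of 0.964.

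Between the genotypes under vehicle, 17 of 259 microexons were called, 14 towards skipping in S34F mice and 3 towards inclusion. The share of 6.56% lay near the 5.95% of all events, whereas calls towards skipping were 3.0% of all events. The median ΔΨ was -0.00339 over microexons and 0.000308 over all events. With every mouse left out in turn 6 of the 17 calls were kept. With the estimated dispersion edgeR called 0 (26 at an unadjusted p under 0.05) and limma called 4. Under sudemycin D6, 12 of 258 were called (4.65%, beside 4.78% of all events), 5 towards skipping, where the background was 2.52%, and 7 towards inclusion. The estimated dispersion gave 0 (29 at an unadjusted p under 0.05), limma gave 2, and the count was 19 without sudemycin WT replicate 9. Shares over all events are not given for the alternative settings, under vehicle or under sudemycin D6. All WT mice expressed Xist (39145 to 78640 reads) and all S34F mice expressed the Y-linked Ddx3y (2131 to 4512 reads), so genotype and the sex of the cells cannot be told apart in these comparisons, and Idh3g and Diap2 are themselves X-linked. The drug comparisons within a genotype lie within 1 such pattern. Neutrophil markers (Elane, Mpo, Ltf, Camp, S100a8 and Ngp) summed to 38700 to 43500 CPM in vehicle WT and 49900 to 81400 CPM in vehicle S34F mice, with all 6 detected. Monocyte and macrophage markers summed to 856 to 1160 and 683 to 794 CPM, B cell markers to 33 to 113 and 13.9 to 115 CPM, and T and NK cell markers to 48 to 55.1 and 60.8 to 67.3 CPM in the same groups. The part of these cells in the genotype differences was not tested.

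Under vehicle, Idh3g had the lowest FDR of the microexons, with a ΔΨ of -0.167 (FDR=3.7e-05), and Abi1 had a ΔΨ of -0.0772 (FDR=0.00034), both without overlap of the groups shown above. Both are also among the drug calls, and drug and genotype comparisons share the vehicle WT mice. Spna2 encodes alpha-II spectrin, part of the skeleton under the plasma membrane. Its 15 bp microexon had a Ψ of 0.0959, 0.104, 0.108, 0.128 and 0.146 in vehicle WT mice and 0.0504, 0.0556, 0.0600, 0.0648 and 0.0653 in vehicle S34F mice, with no overlap and a ΔΨ of -0.0572 (FDR=0.00015). Under sudemycin D6 it was 0.0521, 0.0655, 0.0926, 0.1 and 0.122 in WT and 0.0289, 0.0292, 0.0419, 0.0445 and 0.0576 in S34F mice, where the groups overlapped at 1 mouse each and the ΔΨ was -0.046 (FDR=0.00096). Mdm1 fell from 0.636 ± 0.0333 to 0.409 ± 0.0378 under vehicle (FDR=0.0016). Arhgef11, which encodes an exchange factor for RhoA, had a 30 bp microexon with a ΔΨ of -0.191 (FDR=0.018), lost without vehicle WT replicate 1. Under sudemycin D6 the genotype difference was not called for Idh3g (ΔΨ of -0.0729, FDR=0.15), Abi1 (-0.0275, FDR=0.14), Mdm1 (-0.15, FDR=0.19) or Arhgef11 (-0.088, FDR=0.23).

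Under vehicle, Pecam1 and Ctage5 gave the calls towards inclusion in S34F mice. Pecam1 encodes the adhesion receptor CD31, and its 23 bp microexon lies in coding sequence and is not a multiple of 3. Ψ was 0.375, 0.465, 0.561, 0.567 and 0.625 in vehicle WT mice and 0.648, 0.727, 0.738, 0.743 and 0.848 in vehicle S34F mice, and the groups did not overlap. The ΔΨ of Pecam1 was 0.222 (FDR=0.007) at 77.5 reads per mouse. Under sudemycin D6 its ΔΨ between the genotypes was 0.204 and was not called (FDR=0.15). Ctage5, which encodes a protein of endoplasmic reticulum exit sites, had a 27 bp microexon in 2 events that differ in a neighbouring exon. In the deeper event Ψ was 0.285 ± 0.0378 in vehicle WT and 0.370 ± 0.0502 in vehicle S34F mice (ΔΨ of 0.0854, FDR=0.027, lost without vehicle S34F replicate 5). Under sudemycin D6 it was 0.283 ± 0.0380 and 0.387 ± 0.0454 (ΔΨ of 0.104, FDR=0.0054), with no overlap.

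Under sudemycin D6, 3 further microexons had a low FDR between the genotypes. Mef2a, given above, had a ΔΨ of -0.0608 (FDR=0.0037). Acap2, which encodes a GTPase-activating protein for Arf6, had a 21 bp microexon with a Ψ of 0.0193 ± 0.0139 in WT and 0.0506 ± 0.00815 in S34F mice (FDR=0.012). Senp6 was higher in S34F mice, with a ΔΨ of 0.104 (FDR=0.017), and under vehicle its ΔΨ was 0.0583 (FDR=0.22).

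Position -3 of the acceptor differed between the directions of the genotype calls. Under vehicle it was T in 7, C in 4, A in 2 and G in 1 of the 14 microexon events called towards skipping, whereas 25.5% of the 259 tested had T. It was A in 2 and C in 1 of the 3 events called towards inclusion, and the 2 with A are the 2 events of the same Ctage5 exon. Over events of all lengths T was at 72.8% of 213 events called towards skipping and at 4.78% of 209 called towards inclusion. The T can be seen in Idh3g, Spna2 and Mdm1 above (the base before the last ag in lower case), and Abi1, with an A there, was also called towards skipping. Under sudemycin D6 T was at 4 of 5 microexon events called towards skipping and at 0 of 7 called towards inclusion. Of the 258 microexons tested there, 23.6% had T. Over events of all lengths T was at 73.7% of 179 called towards skipping and at 6.21% of 161 called towards inclusion. The 12 called microexon events lay in 11 exons. The 12 and 16 bp exons of Arhgef1, both called towards inclusion, share 1 acceptor, so the same acceptor is counted more than once.

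**Figure D5:**
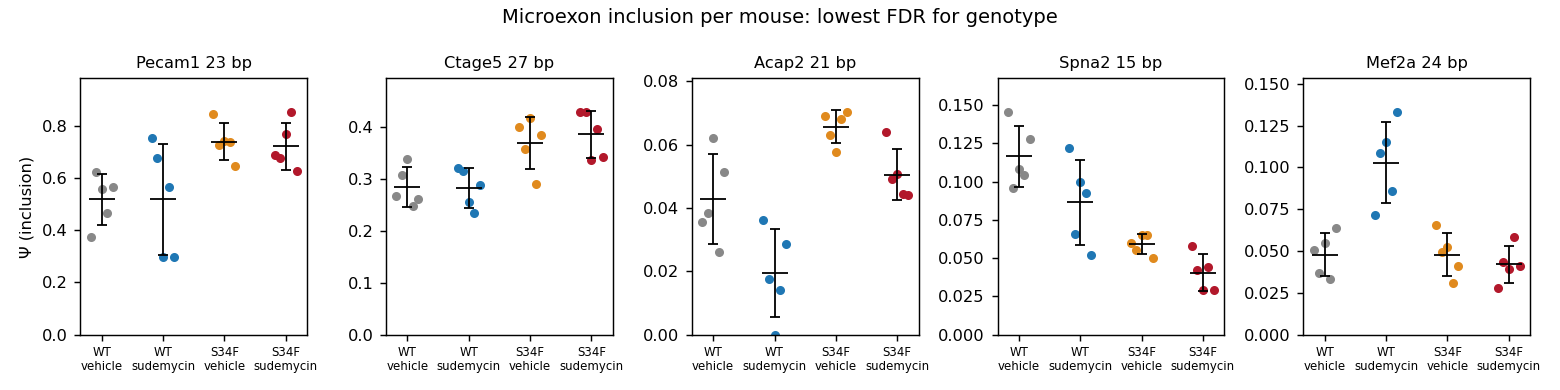
Ψ of the 5 microexons with the lowest FDR for genotype that are not in the drug plot (y axes, from 0 and scaled to each exon) in the 4 groups (x axes), with 1 point per mouse and a black bar and whiskers for the mean and SD of 5 mice. The means of Spna2 are lower and those of Ctage5 and Pecam1 higher in the S34F groups, and the sudemycin WT mice have the highest Mef2a values.

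Mice with mutation and drug together differed from vehicle WT mice in 37 of 258 microexons (14.3%, beside 9.25% of all events). Of these, 28 moved towards skipping, where the background was 5.51%, and 9 towards inclusion. With the estimated dispersion 13 of the 37 were called, and the share over all events under that setting is not given here. The falls with a low FDR included those of Mdm1 (ΔΨ of -0.337, FDR=2.5e-07), Idh3g (-0.314, FDR=5.9e-13), Diap2 (-0.26, FDR=4.3e-09) and Abi1 (-0.147, FDR=5e-13). The mean Ψ of Idh3g went from 0.761 ± 0.0110 in vehicle WT to 0.448 ± 0.0577 in sudemycin S34F mice. It was 0.521 ± 0.0715 in sudemycin WT and 0.595 ± 0.0466 in vehicle S34F mice. Vehicle WT and sudemycin S34F mice also differ in the sex of the cells, so mutation and sex cannot be told apart here either. Cd302, a C-type lectin, had a 27 bp microexon at 0.972 ± 0.0249, 0.922 ± 0.0425, 0.882 ± 0.0723 and 0.844 ± 0.0252 in vehicle WT, sudemycin WT, vehicle S34F and sudemycin S34F mice (ΔΨ of -0.128, FDR=0.0001).

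The shortest exons were counted in an all-or-none way. Clasp2, which encodes a protein of growing microtubule ends, had the shortest exon, the 3 bases shown above. Both of its inclusion junctions were at 0 reads in 10 mice, and in the other 10 mice at least 1 of them held 36 to 96 reads, which put Ψ at 0 in 10 mice and at 0.503 to 0.857 in 10. Phb2, which encodes the mitochondrial scaffold prohibitin 2, had a 6 bp microexon whose upstream junction held 512 to 1294 reads in all 20 mice and whose downstream junction held 656 to 1162 in 9 mice and 0 in 11. The 6 bp exons of Dock10 and 5031439G07Rik, were nearly always skipped, with a mean Ψ of at most 0.0107 and 0.0073 in any group.

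Among microexon events with at least 20 reads on a junction in some mouse, 4 of 6 at 3 to 6 bp, 0 of 8 at 7 to 9 bp, 4 of 53 at 10 to 18 bp and 13 of 125 at 19 to 30 bp had a junction that was at 0 in at least 1 mouse beside 20 or more reads on its partner, and that reached 20 reads in another mouse. The share was 7.91% in exons of 31 to 1000 bp. None of the 4 at 3 to 6 bp was called in any comparison. Of the called microexons, Syne1, Rapgef6 and Arhgef1 (16 bp) had such a junction. Arhgef1 (16 bp) held 723 reads on average on the upstream junction that it shares with the 12 bp exon, and 22.95 downstream. Iffo1 (6 bp), called for the averaged drug and for mutation and drug together, held 0.8 reads upstream. Its downstream junction held 32.15 and is shared with a 9 bp exon, so the Ψ of Arhgef1 (16 bp) and that of Iffo1 (6 bp) each rest on 1 side. A read of 126 bases can cross both junctions of a microexon and is then counted on each, so the 2 counts are not independent.

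Sudemycin D6 changed 3.07% of 14763 genes in WT mice and 10.8% of 14714 in S34F mice by edgeR at an FDR below 10%. For the 7 microexons called with the drug in both genotypes, no host gene was called for the drug in either genotype. Between the genotypes 39.5% of 14817 genes differed under vehicle and 36.8% of 14677 under sudemycin D6. Vehicle WT and sudemycin S34F mice differed in 50.2% of 14761. In each of these comparisons genotype and the sex of the cells cannot be told apart. Among the hosts of the genotype calls, Mdm1 was higher in vehicle S34F mice (log2 fold change of 0.76, FDR=0.00071) and Idh3g too (0.33, FDR=0.028), while Spna2 (0.08, FDR=0.47) and Pecam1 (0.05, FDR=0.66) were not called. In bulk marrow, fewer cells of a type and less RNA per cell cannot be told apart.

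Of 23 genes listed as regulators of microexons and of 3′ splice sites, 19 had enough reads to be tested. Srrm4, the neuronal activator of microexons, had 0 reads in all 20 mice, which says only that it was not detected at this depth, and Srrm3 at most 4. The markers of neurons (Rbfox3, Snap25, Syt1 and Nefl) summed to at most 0.176 CPM in any mouse, with 0 of 4 reaching 10 reads. Ptbp1, the repressor of neuronal microexons, had 7131 to 12401 reads. Its own 30 bp microexon event was at a Ψ of 0.992 ± 0.00801, 0.991 ± 0.00601, 0.988 ± 0.0092 and 0.991 ± 0.00472 in the 4 groups in the order above, but its upstream junction held 1419 reads and its downstream junction 1.95 on average, so that value rests on 1 side.

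No regulator gene was called for sudemycin D6 in WT mice by edgeR (0 of 19, with 2 at an unadjusted p under 0.05), beside 3.07% of all genes, and 0 were called by DESeq2. In S34F mice 2 of 19 were called, near the share of 10.8% of all genes. They were Ptbp1 (log2 fold change of 0.23 ± 0.07 (SE), FDR=0.06) and Rbfox2 (0.69 ± 0.15, FDR=0.026), which rose, the latter at a median of 111.5 reads. The count was 1 without vehicle S34F replicate 11, sudemycin S34F replicate 2 or sudemycin S34F replicate 10. Between the genotypes under vehicle 2 rose and 7 fell of the 19, where 39.5% of all genes were called. U2af1 was higher in S34F mice (0.48 ± 0.07, FDR=0.00029), as was Ptbp3 (0.32 ± 0.09, FDR=0.018). Srrm1 (-0.74 ± 0.10, FDR=0.00027), Sf1, the branch point binding protein (-0.67 ± 0.09, FDR=0.00022), and Srrm2 (-0.52 ± 0.11, FDR=0.0035) were among those that were lower. Under sudemycin D6 5 rose and 4 fell of the 19, beside 36.8% of all genes, and with mutation and drug together 8 rose and 5 fell, beside 50.2% of all genes. The list's median log2 fold change under vehicle was -0.05, beside 0.002 over all genes.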

How the data were processed

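Reads of stranded TruSeq libraries (2 x 126 bases) were aligned to mm9 with TopHat 2.0.8, per the labels. The authors deposited raw counts per splice junction and per gene; the counters are not given in the sources used here. Junctions whose class is DA, which join annotated splice sites as annotated, made up 181355 of 554616. Groups and replicate numbers came from the sample labels. The members and lists were chosen with earlier results of these data known, as was the negative binomial dispersion of 0, so no list is independent evidence. Ψ was computed per mouse, and events with a mean of at least 10 reads were tested with edgeR 4.0.16 (quasi-likelihood, 1 coefficient per mouse, robust). ΔΨ is the second group minus the first. Genes were tested with edgeR (TMM, prior count 2). Exact permutation tests used SciPy 1.17.1. Both models were tested on simulated data. Sequences and annotation were NCBIM37 and GENCODE M1, and gene symbols follow that annotation. Microexons were named where called (up to 12 exons per comparison by |ΔΨ|), where deepest at a Ψ of 0.1 to 0.9 (10), where shortest (5) or where in a regulator gene. Those given mouse by mouse had the lowest FDR, and smaller ones were named after their values were seen. Exons given by group mean include Flna, Acly and Luc7l2, taken for their depth, and Uckl1, Vps29 and Cd302, taken because they were called. Alternatives were limma 3.58.1, DESeq2 1.42.0, an estimated dispersion, other read minimums, a 10% limit on ΔΨ, single junctions, exons of at most 27 bp, 1 model of all mice, a replicate block and each mouse left out. Chosen after seeing the data were the bias-adjusted quasi-likelihood of edgeR 4, balanced junctions, 1 event per exon, unannotated pairings and events without all-or-none junctions. Depth was 41145892 to 62138138 gene reads per mouse. No pair of mice of a group agreed within sampling noise (40 pairs). The p-values measure the spread between these mice, whose donor marrow was pooled. One of the shortest microexons is not reported here.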

Additional observations from a re-analysis of the deposited data

Results flagged for a closer look

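One of the 60 groups of 5 mice behind the microexons given mouse by mouse held a value far from the rest. Chance alone gives such a value in about 1 in 20 groups. It was the Ψ of Senp6 in vehicle S34F replicate 3, at 0.777 beside 0.825 to 0.844 in the 4 other mice, a gap of 0.719 of the group's range. It lies towards the drug-treated mice (0.669 to 0.711) without reaching them, and the drug call for Senp6 in S34F mice was kept with this mouse left out.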

How the results depend on the processing

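The counts of called microexons kept their size, within 1.5 times, under a minimum of 20 reads or 1 read, annotated exons only, exons of at most 27 bp, the upstream junction alone, balanced junctions, 1 event per exon and events without all-or-none junctions. The dispersion mattered most. In place of 17 (genotype under vehicle), 12 (genotype under sudemycin D6), 12 (drug in WT), 16 (drug in S34F), 37 (both together) and 28 (drug averaged) microexons, an estimated dispersion gave 0, 0, 0, 0, 13 and 14, and the limit of 10% on ΔΨ gave 8, 3, 7, 10, 19 and 12. limma on Ψ gave 4, 2, 0 and 7 in the first 4 of these comparisons. Shares over all events under these settings are not given here, so the counts cannot be set against a background. The table with unannotated pairings gave 28 and 42 for the genotype, 27 for the drug in S34F and 59 for both together. One model of all mice gave 20 for the drug in WT and 9 in S34F, edgeR 4 quasi-likelihood gave 20 in WT, and the downstream junction alone gave 9 in S34F. With each mouse left out the counts ranged from 16 to 23, 11 to 19 (19 without sudemycin WT replicate 9), 8 to 17, 10 to 16 (10 without vehicle S34F replicate 3 or sudemycin S34F replicate 2 or 6), 31 to 40 and 23 to 32, and the regulator genes called for the drug in S34F from 1 to 3. Of 3290 alternative values of 122 single calls, 2762 kept the call, 527 lost it and 1 reversed, which was Arhgef1 16 bp between the genotypes under sudemycin D6, at a ΔΨ of -0.0234 with the downstream junction alone. With that junction alone, the change of Syne1 with the drug in WT was 0.00658. The causes were not tested.

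Mice that share a replicate number did not deviate together, with correlations of 0.00822 to 0.0596 over 3 numbers under vehicle and of -0.0319 to 0.0655 over 4 under sudemycin D6, and only numbers 5 and 6 correlated best with their own. With the replicate block, 9 microexons under vehicle and 15 under sudemycin D6 were called, and 7 regulator genes in each. Depth limits the shallow microexons, since 43 events were below the minimum.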
